A study of Mus musculus with 8 samples.

Results

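Running mice that lack Snf2h in the brain were set against sedentary control mice, the pair of groups that differs in both genotype and activity. Polyadenylated RNA of the cerebellum was sequenced in C57Bl/6 mice labelled male at postnatal day 40, with 2 libraries per group and 3 pooled cerebella per library. Control and Snf2h cKO-Nestin mice (cKO, the mutants) were each kept sedentary or as runners, so that the groups are cKO runner, cKO sedentary, control runner and control sedentary. Reads were paired, 2 x 100 bases; the libraries of a group carry a lane letter, and the labels do not say whether it marks a separate pool. The labels do not describe the control genotype further, nor how long the mice ran, and the series title speaks of voluntary running. The comparison asks how far the running mutant stays from the untreated control. No deposited table holds it, so it was built from the tables of the other pairs.

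Members were the loci with a value in both groups and an FPKM (a count of fragments scaled for transcript length and library size) of 1 or more in at least 1 of them. These were 7554 of the 11763 loci listed in any of the 4 tables. A further 489 loci had both values but stayed under 1 FPKM, and 3720 lacked a value in at least 1 of the groups. At the edge of the rule, Magel2 reached 0.990 FPKM in its higher group and was left out, while Csf3r reached 1.001 and was kept. Of the loci kept, 4 were listed at 0 in 1 group and had no ratio, which left 7550. The tables list mostly genes that the authors called in some comparison, and 84.3% of the 7550 loci stood in both genotype tables, so the loci are not a sample of all transcripts. Each FPKM is the authors' single value for a group, without a spread between libraries. The pair has no deposited test, and none was made here; differences are described by size, with 2-fold (log2 of 1 or more, or -1 or less) as the mark. A value not marked as a difference or ratio is a level in FPKM.

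Smarca5 encodes Snf2h, a motor protein of ISWI complexes that slide and space nucleosomes. A Nestin-driven deletion acts in neural progenitors and the neurons, astrocytes and oligodendrocytes they form, while microglia, vessels and meninges come from other lineages and keep the gene. The cerebellar cortex consists largely of small excitatory granule neurons, whose axons drive the Purkinje cells, its inhibitory output. Markers of these cells were high in the control: Pcp2, a Purkinje cell protein, stood at 397 FPKM and Gabra6, the granule cell GABA-A receptor subunit, at 423 in control sedentary.

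The values of sex-linked genes went against the male label. Xist, the RNA that coats the inactive X of females, had 34.8 FPKM in sedentary controls, 57.6 in running controls, 18.1 in sedentary mutants and 25.8 in running mutants. Eif2s3y, a Y-linked translation factor gene, had 7.43, 0.0334, 10.4 and 5.56 FPKM in the same order. Xist was thus detected in every group labelled male, and the Y-linked gene was near 0 in the libraries labelled control runner. In the pair compared here, Uty and Kdm5d, both Y-linked, were lower in cKO runners, at 1.53 against 4.27 and 1.36 against 3.13 FPKM. The part of sex in any difference below was not tested.

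Running mutants differed from untreated controls by 2-fold or more at 12.7% of the loci with a ratio. The median locus differed by 1.35-fold (an absolute log2 ratio of 0.44). Of the 7550 loci, 709 were at least 2-fold higher in cKO runners, which is 9.39%, and 249 were at least 2-fold lower, which is 3.30%. At 4-fold the counts were 96 higher and 25 lower. A difference under 1.5-fold was found for 65.4% of loci, and 30.4% lay within 1.2-fold. The median log2 ratio was -0.03, so the larger number of 2-fold increases went with slightly more loci lower (3939) than higher (3611).

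**Figure D1:**
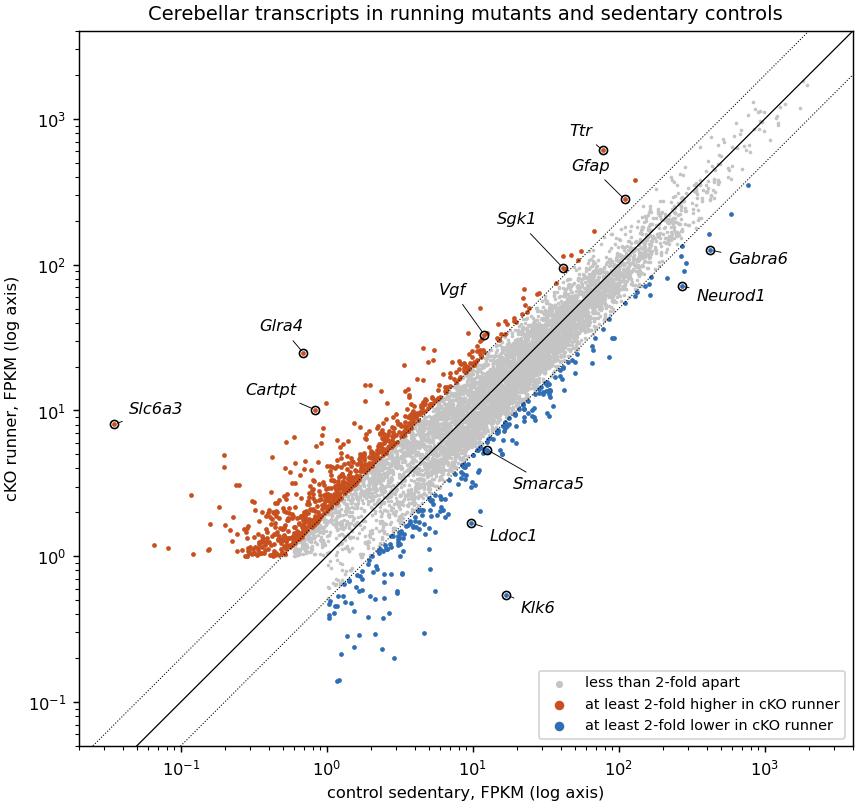
Each point is a locus, with its FPKM in control sedentary on the horizontal axis and in cKO runner on the vertical axis, both on log axes. The solid line marks equal values and the dotted lines 2-fold; the 709 loci above the upper dotted line crowd at low control levels, and Klk6 lies farthest below.

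The share of loci past 2-fold varied with the level in the control. Among 433 loci under 1 FPKM in control sedentary, 68.1% were at least 2-fold higher in cKO runners and none was lower, but these loci were kept only because they reached 1 FPKM in cKO runners, which fixes the direction. Among the 7117 loci at 1 FPKM or more in control sedentary, 5.82% were at least 2-fold higher. From 1 to 10 FPKM, 14.1% were 2-fold higher and 5.27% lower. From 10 to 100 FPKM the order turned, with 1.15% higher and 2.38% lower. Above 100 FPKM, 2 loci were 2-fold higher and 17 lower among 534. Where 5.82% is set beside a list below, it covers all 7117 loci at 1 FPKM or more. It is not matched to the levels of the list's members, so it is too low for lists of weakly expressed genes and too high for lists of abundant ones. Ratios also followed transcript length: where the longest transcript was below 1 kb, 27.8% of loci were higher in cKO runners, against 61.3% above 6 kb.

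The other groups give the scale of this distance. Over the 6896 loci with a value in every group, the median absolute log2 ratio to control sedentary was 0.16 for control runner, 0.47 for cKO runner and 0.56 for cKO sedentary. The share at least 2-fold away in either direction was 1.03% in control runner, 13.8% in cKO runner and 18.5% in cKO sedentary, and the share at least 2-fold lower was 0.377%, 3.55% and 6.45%. These 3 ratios share the sedentary control, so they are given side by side and were not tested against each other. By each of these measures the value for running mutants lay between those of the other groups and nearer to that of sedentary mutants. Of the 7550 loci with a ratio, 6361 were listed in both genotype comparisons, and 3574 in the comparison of running in controls. Listing by genotype favours larger ratios in the mutant groups, so the gap to control runner partly restates how loci were listed.

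**Figure D2:**
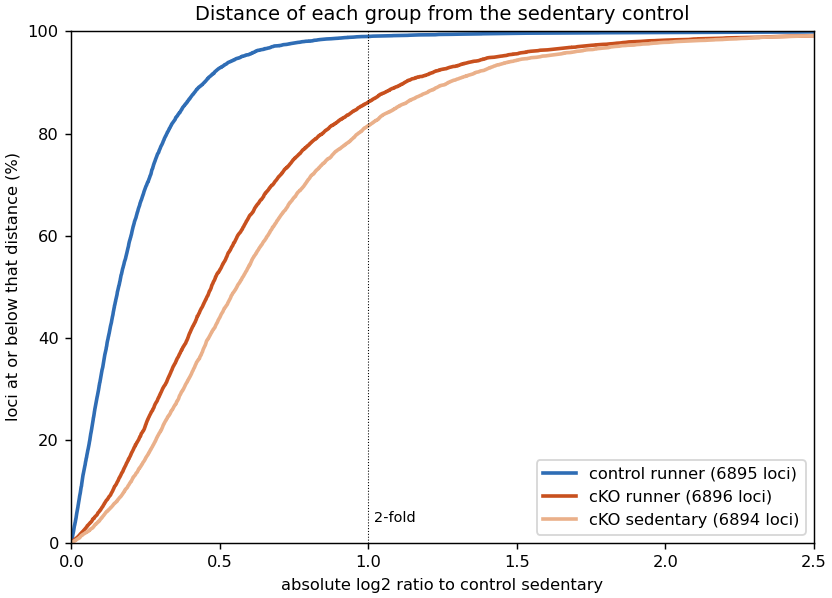
The curves give the percentage of loci (vertical axis) whose absolute log2 ratio to control sedentary is at or below the value on the horizontal axis, for control runner, cKO runner and cKO sedentary. The cKO runner curve, with a median of 0.47, runs between the control runner curve (0.16) and the cKO sedentary curve (0.56), nearer to the latter.

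Smarca5 (chr8:80698507-80739497, mm10, minus strand) checks the genotype labels. Its level was 12.6 FPKM in sedentary controls, 12.96 in running controls, 4.94 in sedentary mutants and 5.38 in running mutants. Both mutant groups were low and close to each other, and the log2 ratio of cKO runner to control sedentary was -1.23. Of 14 ISWI and partner subunit genes, 6 had a ratio, and the other 5 were lower by less, from -0.36 for Rbbp4, a histone-binding subunit, to -0.14 for Baz2a, a bromodomain partner. Of 17 histone genes, 8 had a ratio, and 7 of these were lower, with a median log2 ratio of -0.54 (-0.27 relative to genes of like length). H3f3b, which encodes the replacement histone H3.3, had 249 FPKM in sedentary controls, 233 in running controls, 142 in sedentary mutants and 139 in running mutants.

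Granule neuron genes had the lowest median of the 24 lists. Of 29 genes written, 28 had a ratio and 26 were lower in cKO runners; 13 were at least 2-fold lower, against 3.30% of all loci, and none was 2-fold higher. The list's median log2 ratio was -0.96, against -0.03 over all loci. With the same 28 genes, the median was -1.57 for cKO sedentary and 0.16 for control runner. In bulk tissue, fewer granule cells and less RNA per cell cannot be told apart.

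Neurod1, a transcription factor that drives granule neuron differentiation, lies at chr2:79452521-79456751 (minus strand). It stood at 270.1 FPKM in sedentary controls, 237 in running controls, 37.8 in sedentary mutants and 71.2 in running mutants. Runner and sedentary controls were close, while the running mutant held 3.79-fold less than the sedentary control and more than the sedentary mutant. Gabra6 (chr11:42306437-42321072, minus strand) ran alike, at 423, 421, 74.4 and 126 FPKM in the same order of groups. Ntf3, the neurotrophin-3 gene, had 5.51, 4.88, 0.724 and 1.46 FPKM, and the calcium-binding protein gene Calb2 had 282, 215, 50.9 and 90.6. Each of these genes was lowest in the sedentary mutant and next lowest in the running mutant. Members with small ratios included Reln, which encodes the secreted guidance protein reelin (log2 -0.33), and Nfix (0.03), a transcription factor with 25.5 FPKM in control sedentary and 26.1 in cKO runner. Kcnk9, a leak potassium channel gene, was the highest member at 0.49.

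The transcripts with the largest negative FPKM difference included several neuronal transcripts. Snap25, the synaptic vesicle fusion protein, had 1742 FPKM in control sedentary and 1183 in cKO runner. Gpm6a, a neuronal membrane glycoprotein gene, had 773 and 355 FPKM, and Nrep had 588 and 225. Chn2, a Rac regulator on the granule neuron list, had 412 and 163. Of these, Gpm6a, Nrep and Chn2 were past 2-fold, at log2 ratios of -1.12, -1.39 and -1.34, and Snap25 was at -0.56.

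Purkinje cell genes were modestly higher. A ratio was had for 27 of 29 genes, of which 21 were higher and 6 lower, with a median log2 ratio of 0.40. All 27 were at 1 FPKM or more in control sedentary. At least 2-fold higher were 2, 7.41% against 5.82% of all loci at that level. On the 25 members with all 4 values the medians were 0.47 for cKO runner, 0.97 for cKO sedentary and 0.10 for control runner. Slc1a6, the Purkinje cell glutamate transporter, had 89.3 FPKM in sedentary controls, 93.0 in running controls, 239 in sedentary mutants and 164 in running mutants. Itpr1, the calcium release channel of these cells, had 360.1, 454, 960.4 and 641. For both, the running mutant lay between the controls and the sedentary mutant. Cacna1g, a T-type calcium channel gene, and Skor2, a Purkinje transcription factor gene, were past 2-fold, at log2 ratios of 1.19 and 1.26. Pcp4 and Pvalb, 2 abundant calcium-signalling genes, were lower, at -0.43 and -0.28, and Pcp4 was also low in control runners (558 FPKM against 796 in control sedentary). The summed level of the granule neuron list, on the same relative scale, was 3049 FPKM in control sedentary and 1262 in cKO runner, and its part in the Purkinje values was not tested.

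Inhibitory interneuron genes had no shared direction. Of 13 genes with a ratio, 8 were higher and 5 lower, with a median log2 ratio of 0.16 that turned to -0.12 with control runner as the reference. The list also held Eomes, a gene of excitatory unipolar brush cells, which was among the higher members (log2 0.96). Slc6a5, the glycine transporter of Golgi cells and of glycinergic hindbrain neurons, was 2-fold higher, at 11.04 against 5.22 FPKM. Kit, a receptor tyrosine kinase gene of molecular layer interneurons, had 66.2 FPKM in sedentary controls, 68.4 in running controls, 49.6 in sedentary mutants and 33.4 in running mutants. Kit was therefore lowest in the running mutant (log2 -0.99).

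**Figure D3:**
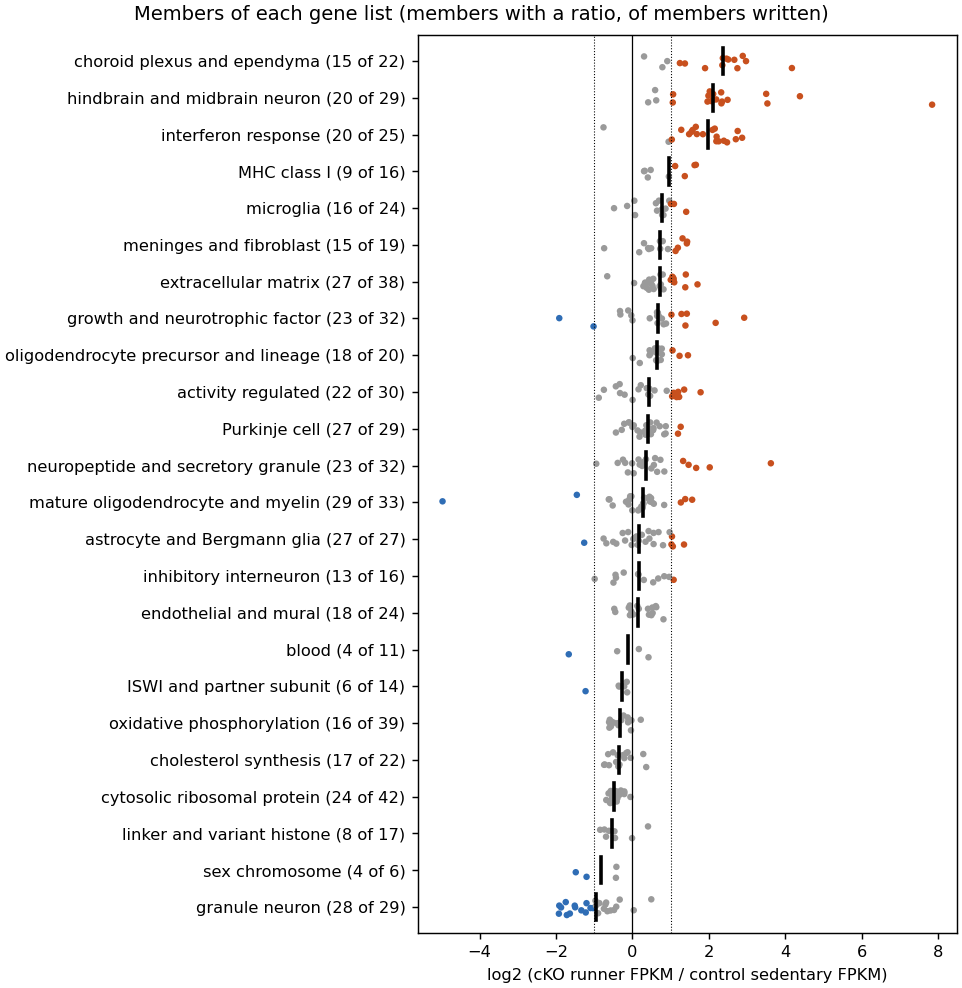
Each point is a list member, placed by its log2 ratio of cKO runner to control sedentary FPKM; black bars are list medians, dotted lines 2-fold, and the numbers give members with a ratio of those written. Choroid plexus and ependyma, hindbrain and midbrain, and interferon lists have medians of 2.37, 2.11 and 1.97, and granule neuron genes lie at the other end with -0.96. Over members at 1 FPKM or more in control sedentary, the medians of the same high lists are 1.24, 1.99 and 1.56.

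Genes of oligodendrocyte precursors and of the lineage were higher in running mutants, and mature oligodendrocyte and myelin genes went both ways. Of 20 precursor and lineage genes, 18 had a ratio, every one of them above 0, with a median of 0.64. All 18 were at 1 FPKM or more in control sedentary. At least 2-fold higher were 3, 16.7% against 5.82% of all loci at that level. Olig2, which specifies the lineage, stood at 5.29 FPKM in sedentary controls, 7.74 in running controls, 13.3 in sedentary mutants and 12.4 in running mutants. C1ql1, a secreted synaptic protein gene that precursors also express, had 1.81, 2.02, 4.26 and 4.95 FPKM, and Gpr17, a receptor of early differentiating cells, had 7.63, 9.29, 17.1 and 15.8. For all 3 genes both mutant groups were above both control groups, and the mutant groups were close. The median over 17 genes with all 4 values was 0.65 for cKO runner and 0.73 for cKO sedentary.

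Among 33 mature oligodendrocyte and myelin genes, 29 had a ratio, with a median of 0.27. All of these were at 1 FPKM or more in control sedentary. At least 2-fold higher were 3 of them, 10.3% against 5.82% of all loci at that level. At least 2-fold lower were 2, 6.90% against 3.50%. Mbp, the myelin basic protein gene, had 1934 FPKM in sedentary controls, 1846 in running controls, 1895 in sedentary mutants and 1722 in running mutants, which is a log2 ratio of -0.17. Myrf, the transcription factor that switches on myelin genes, had 9.81, 11.9, 25.2 and 25.6 FPKM. Mbp was nearly level over the groups, while Myrf was higher in cKO runners by a log2 ratio of 1.38. Enpp2, which encodes autotaxin and is also strongly expressed in choroid plexus, had 129, 326, 377 and 382 FPKM and was thus low in control sedentary alone.

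Klk6 was the farthest below the control of all loci with a single named gene. It encodes a secreted serine protease of oligodendrocytes, at chr7:43824499-43832030 (plus strand). Its level was 17.0 FPKM in sedentary controls, 13.7 in running controls, 0.576 in sedentary mutants and 0.543 in running mutants, a 31.3-fold lower level in running mutants than in the sedentary control. The mutant groups did not differ by more than 0.1 FPKM. Tcf7l2, a Wnt pathway transcription factor of differentiating oligodendrocytes and of thalamic neurons, behaved otherwise, at 20.99, 17.8, 8.01 and 23.99 FPKM. It was among the 8 genes chosen for lying within 1.2-fold of the control in cKO runners despite a large distance in cKO sedentary.

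Astrocyte and Bergmann glia genes were split. All 27 had a ratio; 18 were higher and 9 lower, with a median of 0.17. All were at 1 FPKM or more in control sedentary. At least 2-fold higher were 4, 14.8% against 5.82% of all loci at that level. At least 2-fold lower was 1, 3.70% against 3.50%. Gfap, the intermediate filament of reactive astrocytes, stood at 109.9 FPKM in sedentary controls, 80.2 in running controls, 348 in sedentary mutants and 280.3 in running mutants. Fabp7, a fatty acid binding protein of Bergmann and radial glia, went the other way, at 66.1, 42.2, 33.6 and 27.6. The glutamate transporters parted as well, with Slc1a2 at a log2 ratio of 1.04 and Slc1a3, the Bergmann glia transporter, at -0.50. Glul, the glutamine synthetase gene, was highest in the running mutant, at 751 FPKM against 431 in control sedentary, 402 in control runner and 533 in cKO sedentary.

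Of 24 microglia genes, 16 had a ratio, and 14 of these were higher, with a median of 0.77. At least 2-fold higher were 3 (9.39% of all loci). Of the 16, 1 was under 1 FPKM in control sedentary and had to be higher to be kept. Of the other 15, 2 were at least 2-fold higher, against 5.82% of all loci at that level. Ctss, a lysosomal protease gene, had 16.6 FPKM in sedentary controls, 14.5 in running controls, 32.8 in sedentary mutants and 33.5 in running mutants. The complement genes C1qa, C1qb and C1qc had log2 ratios of 0.96, 0.78 and 0.81. P2ry12, a receptor of resting microglia, was lower at -0.48 (8.17 FPKM in control sedentary, 4.94 in control runner and 5.86 in cKO runner).

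Interferon response genes were mostly higher in running mutants. Type I interferon acts through the kinases of its receptor on transcription factors, Stat2 among them, that bind a promoter element with repeated GAAA units. Of 25 genes written, 20 had a ratio, and 18 of these were at least 2-fold higher in cKO runners, against 9.39% of all loci. Their median log2 ratio was 1.97 for cKO runner, 1.40 for cKO sedentary and 0.01 for control runner. Of the 20 genes, 10 were under 1 FPKM in control sedentary and were kept only because they were high in cKO runners, so the count and the median partly restate the rule. Of the other 10, 8 were at least 2-fold higher, against 5.82% of all loci at that level. With 1 FPKM added to both values the median was 1.14.

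Usp18, a deubiquitinase that limits interferon signalling, had 0.562 FPKM in sedentary controls, 0.587 in running controls, 3.03 in sedentary mutants and 3.79 in running mutants. Irf7, the transcription factor that amplifies the response, had 0.912, 0.909, 4.03 and 5.95 FPKM, and Oasl2 had 0.930, 1.05, 4.77 and 6.80. Lgals3bp, a secreted glycoprotein gene of higher level, had 5.44, 5.63, 19.2 and 26.0. In all 4 genes the controls were level with each other, the sedentary mutant was several times higher, and the running mutant was higher still. Stat2 was the sole member below the control, with 22.8 FPKM in the sedentary control and 13.5 in running mutants. MHC class I genes, which interferon also induces, were higher in 9 of 9 cases with a ratio, of 16 written, with a median of 0.95. Over all 7550 loci, 3611 were higher. Of the 9 genes, 1 was under 1 FPKM in control sedentary and had to be higher to be kept. The other 8 had a median of 0.72. Of these 8, 3 were at least 2-fold higher, against 5.82% of all loci at that level. H2-K1, a classical class I heavy chain gene, had 9.46, 7.90, 24.3 and 24.5 FPKM.

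Promoter windows of the interferon genes were searched for the element described above. The genes were listed as interferon response genes, so a high share with this element describes the list and not these data. RefSeq windows (GRCm38.p6, the build of mm10) run from 250 bases before the gene start to 50 after it. They were searched on both strands for GAAA followed, after any 2 bases, by a further GAAA, the core of the interferon-stimulated response element, and overlapping matches were kept. A match was found in 10 of the 15 list genes that had a ratio and a window, and in 3.99% of all 27025 genes with a window. Shown here are the 4 listed genes with a window whose ratios were largest, and Stat2, the member that was lower; capitals mark matches. Isg15 holds 3 overlapping matches, the first starting 78 bases before the gene start, Oas1a holds 2 and Stat2 1 on the opposite strand. Oasl2 and Irf7, with the largest ratios of the 5, hold no match in these windows.
Oasl2 (chr5:114896684-114896983, plus strand): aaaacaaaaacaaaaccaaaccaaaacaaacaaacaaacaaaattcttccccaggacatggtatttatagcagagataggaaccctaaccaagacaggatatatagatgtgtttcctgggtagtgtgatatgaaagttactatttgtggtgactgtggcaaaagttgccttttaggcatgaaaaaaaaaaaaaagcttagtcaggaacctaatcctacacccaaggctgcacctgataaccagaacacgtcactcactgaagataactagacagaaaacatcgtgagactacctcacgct
Irf7 (chr7:141266375-141266674, minus strand): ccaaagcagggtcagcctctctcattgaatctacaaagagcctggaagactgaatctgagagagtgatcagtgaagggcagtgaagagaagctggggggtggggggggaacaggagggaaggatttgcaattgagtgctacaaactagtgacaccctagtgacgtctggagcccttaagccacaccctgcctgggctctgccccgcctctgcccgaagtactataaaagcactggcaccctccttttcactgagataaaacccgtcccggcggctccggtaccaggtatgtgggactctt
Isg15 (chr4:156200769-156201068, minus strand): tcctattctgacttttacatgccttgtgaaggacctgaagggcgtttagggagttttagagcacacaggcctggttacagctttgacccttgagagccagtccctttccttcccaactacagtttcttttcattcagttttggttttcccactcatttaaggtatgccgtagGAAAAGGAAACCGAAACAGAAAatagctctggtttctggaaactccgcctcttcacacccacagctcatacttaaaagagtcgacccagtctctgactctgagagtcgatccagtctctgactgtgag
Oas1a (chr5:120907476-120907775, minus strand): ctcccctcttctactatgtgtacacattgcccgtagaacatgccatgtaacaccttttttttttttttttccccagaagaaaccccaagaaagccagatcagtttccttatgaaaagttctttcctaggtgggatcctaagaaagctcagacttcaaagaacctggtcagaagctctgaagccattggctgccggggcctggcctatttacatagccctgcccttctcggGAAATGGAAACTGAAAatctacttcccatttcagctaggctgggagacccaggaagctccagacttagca
Stat2 (chr10:128270248-128270547, plus strand): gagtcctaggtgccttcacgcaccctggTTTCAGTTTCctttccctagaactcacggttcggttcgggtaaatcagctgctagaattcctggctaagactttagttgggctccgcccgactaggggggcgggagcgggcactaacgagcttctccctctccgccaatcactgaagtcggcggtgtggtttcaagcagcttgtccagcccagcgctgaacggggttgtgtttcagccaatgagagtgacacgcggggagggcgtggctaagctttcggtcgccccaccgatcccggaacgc

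Vgf, the secreted neuropeptide precursor named in the series title, was 2.77-fold higher in running mutants than in sedentary controls. It lies at chr5:137026392-137033351 (plus strand). Its level was 11.97 FPKM in sedentary controls, 10.7 in running controls, 24.8 in sedentary mutants and 33.2 in running mutants, so the running mutant stood farthest from the control. Of 32 neuropeptide and secretory granule genes, 23 had a ratio, with a median of 0.36. Of these, 17 were higher, 6 lower and 5 at least 2-fold higher (9.39% of all loci). Under 1 FPKM in control sedentary were 2 of the 23, Cartpt among them, and these had to be higher to be kept. Of the other 21, 3 were at least 2-fold higher, against 5.82% of all loci at that level. Cartpt, the precursor of the peptide CART (chr13:99898489-99901091, minus strand), had 0.824, 0.554, 1.49 and 10.2 FPKM and was high in the running mutant alone. Pcsk1, which cleaves such precursors, had 8.34, 10.1, 26.7 and 20.9. The granin genes differed by less, with log2 ratios of 0.50 for Scg2, 0.19 for Chga and -0.39 for Chgb. Sst, the somatostatin gene, was at the control level in running mutants, at 34.4, 20.7, 18.0 and 34.2 FPKM.

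Hindbrain and midbrain neuron genes were higher in running mutants as well. Of 29 such genes, 20 had a ratio, all were higher and 17 were at least 2-fold higher (9.39% of all loci), with a median log2 ratio of 2.11. Of these, 9 were under 1 FPKM in control sedentary and were kept only through cKO runners, where they had to be higher. Of the other 11, 8 were at least 2-fold higher, against 5.82% of all loci at that level. Summed over these 20 genes, the level was 71.3 FPKM in sedentary controls, 54.7 in running controls, 158 in sedentary mutants and 204 in running mutants. None was at 0 in any group, and the median was 3.30 with control runner as the reference. Slc6a3, the dopamine transporter, had 0.0350 FPKM in sedentary controls, 0.0508 in running controls, 1.78 in sedentary mutants and 8.03 in running mutants, the largest ratio of any named locus (log2 7.84), and rests on near-zero control values. Dbh, the noradrenaline synthesis enzyme, had 0.991, 0.355, 7.16 and 11.2, and Tph2, the serotonin synthesis enzyme, had 4.93, 1.05, 21.8 and 21.3. Such neurons lie outside the cerebellar cortex, and the part of adjoining tissue in the Vgf and Cartpt values was not tested.

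Choroid plexus and ependyma genes had the highest list median over all members with a ratio, and most choroid plexus members were lowest in the sedentary control. Of 22 genes, 15 had a ratio, all were higher in cKO runners and 12 were at least 2-fold higher (9.39% of all loci), with a median of 2.37. Of these, 8 were under 1 FPKM in control sedentary and had to be higher to be kept. Of the other 7, 4 were at least 2-fold higher, against 5.82% of all loci at that level. The median of these 7 was 1.24, below that of the hindbrain and midbrain (1.99) and interferon (1.56) members at 1 FPKM or more. The top rank thus rests on members that had to be higher. Ttr, the transthyretin gene, had 77.7 FPKM in sedentary controls, 518 in running controls, 639.6 in sedentary mutants and 610.2 in running mutants. Kl, the klotho gene, had 1.84, 8.01, 12.8 and 11.7. For these genes control runners were nearer to the mutants than to the sedentary control. The genes of ciliated ependymal cells did not run so: Ccdc153 had 2.34, 1.34, 4.23 and 2.89 FPKM, and Dynlrb2, a dynein light chain gene, had 1.29, 0.980, 2.58 and 2.43, with control runners the lowest group. With control runner as the reference the median of the whole list was 0.50. With 1 FPKM added to both values, it was 1.26 against control sedentary. The summed level of the list was 131 FPKM in control sedentary and 598, 765 and 732 in the other groups in the same order. Meninges and fibroblast genes had a median of 0.73 in cKO runners and of -0.01 in control runners, where 7 of the 15 were above and 8 below the sedentary control. Among them, Igf2, an insulin-like growth factor gene, had 22.01, 34.6, 72.6 and 59.1 FPKM.

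**Figure D4:**
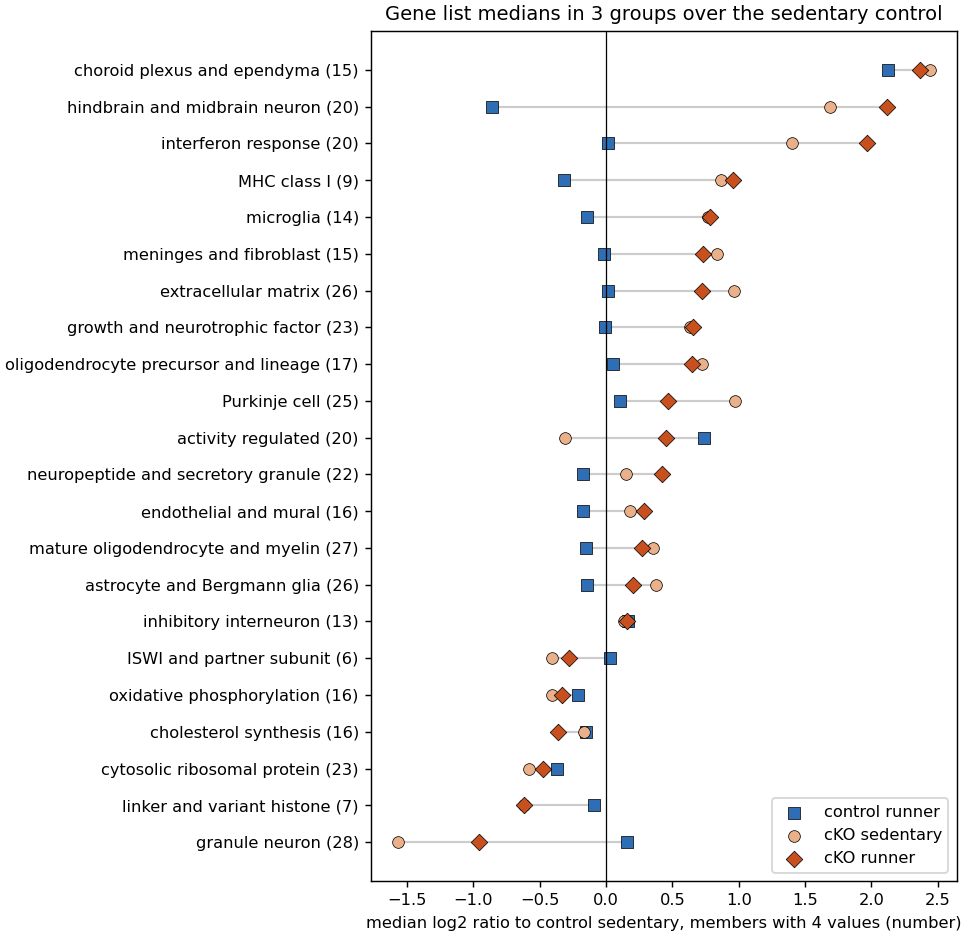
Markers give the median log2 ratio to control sedentary over the list members with a value in every group (number in brackets), for control runner, cKO sedentary and cKO runner. Choroid plexus and ependyma genes are displaced in control runner as well (2.12), activity-regulated genes are high in both runner groups (0.74 and 0.46), and granule neuron and Purkinje cell medians in cKO runner lie between 0 and the cKO sedentary medians.

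Of 38 extracellular matrix genes, 27 had a ratio, and 26 of these were higher, with a median of 0.71. At least 2-fold higher were 8 (9.39% of all loci). Under 1 FPKM in control sedentary were 4 of the 27, Fbn1 among them, and these had to be higher to be kept. Of the other 23, 4 were at least 2-fold higher, against 5.82% of all loci at that level. The median of these 23 was 0.55. Fbn1, the fibrillin-1 gene, had the largest ratio (log2 1.70), from 0.436 FPKM in control sedentary to 1.42 in cKO runner. Tnc, the tenascin-C gene of Bergmann glia, was the member that was lower, at 7.59 against 4.80 FPKM. Among growth factor genes, 23 of 32 had a ratio, with a median of 0.66. At least 2-fold higher were 6 (9.39% of all loci), and at least 2-fold lower were 2 (3.30% of all loci). Of the 23, 1 was under 1 FPKM in control sedentary and had to be higher to be kept. Of the other 22, 5 were at least 2-fold higher, against 5.82% of all loci at that level. Il33, an alarmin of astrocytes and oligodendrocytes, had 11.2 FPKM in sedentary controls, 11.8 in running controls, 50.3 in sedentary mutants and 50.7 in running mutants. Dlk1, an imprinted Notch pathway gene, had 1.96, 1.61, 10.9 and 14.9. For both genes the controls were level and the mutants 4-fold or more above them. Bdnf, the neurotrophin gene, was nearer to the control in running mutants (4.07 FPKM) than in sedentary mutants (2.33), with 5.09 in control sedentary.

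Most activity-regulated genes were higher in the running mutant than in the sedentary control. Immediate early genes of this kind are switched on within minutes by synaptic input and calcium. Of 30 genes, 22 had a ratio, of which 16 were higher, 6 lower and 7 at least 2-fold higher (9.39% of all loci). Of the 22, 2 were under 1 FPKM in control sedentary and had to be higher to be kept. Of the other 20, 5 were at least 2-fold higher, against 5.82% of all loci at that level. The median log2 ratio of all 22 was 0.43. Against control runner the median was -0.34, so the direction depends on the reference: of 20 genes with a control runner value, 16 were lower in cKO runners than in control runners and 4 were higher. Those 4 were Klf4, a transcription factor gene with 3.24 against 1.56 FPKM, Per1, Dusp4 and Sik1. Nr4a3, an orphan nuclear receptor gene, had 2.39 FPKM in sedentary controls, 6.68 in running controls, 1.81 in sedentary mutants and 5.47 in running mutants. Fos had 14.4, 26.2, 12.4 and 18.7, and Dusp1, a MAP kinase phosphatase gene, had 24.8, 42.2, 13.999 and 28.8. In these 3 genes both runner groups were above both sedentary groups. Dusp5, another phosphatase gene, and Jun were lower in cKO runners than in the control, at log2 ratios of -0.88 and -0.75.

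For some genes the running mutant lay farther from the control than the sedentary mutant did. Sgk1, a kinase gene induced by glucocorticoids (chr10:21882184-21999903, plus strand), had 41.4 FPKM in sedentary controls, 63.0 in running controls, 36.4 in sedentary mutants and 95.3 in running mutants. Per1, a clock gene, had 10.3, 18.2, 10.96 and 21.2, and Cdkn1a, a cell cycle inhibitor gene, had 7.22, 13.9, 10.9 and 21.5. Plin4, a lipid droplet protein gene, had 0.838, 1.89, 2.27 and 5.69. All 4 were higher in control runners than in control sedentary and highest in cKO runners. These genes, with Cartpt, Slc6a3, Lamp5 and Arl4d, were the 8 whose absolute log2 ratio exceeded that of cKO sedentary by most, and so were chosen by this pattern.

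The 8 genes chosen for the opposite pattern, within 1.2-fold of the control in cKO runners, were Tcf7l2, Tcp11l1, Metap1d, Sst, Gpr63, Ednrb, Kcnk12 and Dusp1. Gpr63, a Purkinje cell receptor gene, had 11.6 FPKM in sedentary controls, 13.5 in running controls, 21.6 in sedentary mutants and 13.2 in running mutants. Ednrb, the endothelin B receptor gene of Bergmann glia, had 49.7, 48.7, 89.7 and 55.6. Both were high in the sedentary mutant alone.

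**Figure D5:**
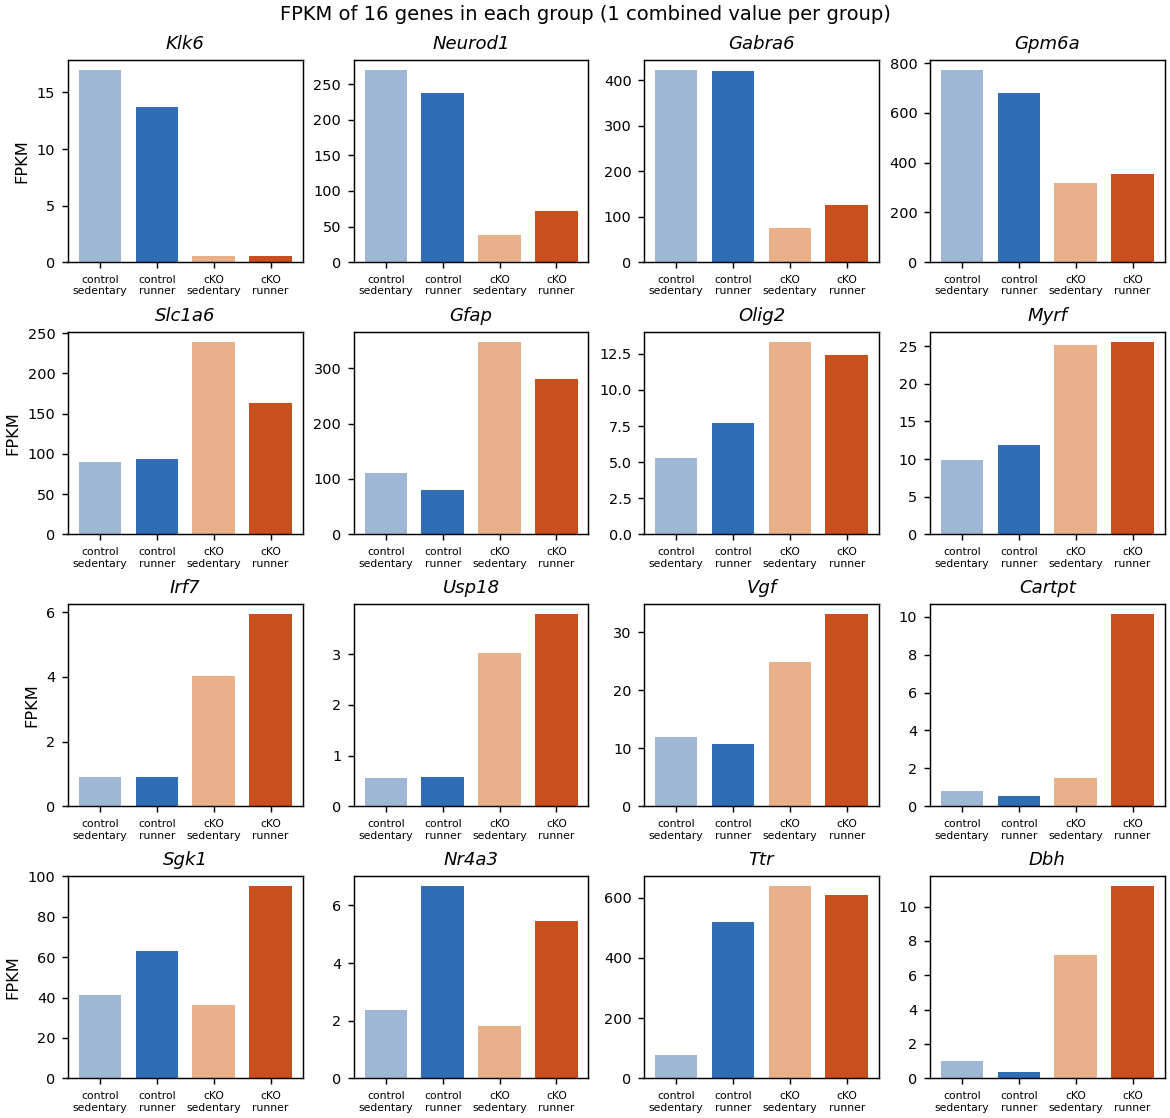
Bars give the FPKM of 16 genes in each group (control before cKO, sedentary before runner), 1 authors' value per group with no error bar, each panel from 0. Klk6 stays near 0 in both mutant groups, Neurod1 and Gabra6 lie between the sedentary mutant and the controls, Vgf and Cartpt are highest in cKO runner, and Ttr is low in control sedentary alone.

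Ribosomal protein, respiratory chain and cholesterol genes that had a ratio were mostly slightly lower. All 24 cytosolic ribosomal protein genes with a ratio, of 42, were lower, with a median of -0.47 and none past 2-fold. Their median was also -0.37 in control runners, and it was -0.08 with control runner as the reference and -0.19 relative to genes of like length. Rpl28 had 222 FPKM in sedentary controls, 162 in running controls, 121 in sedentary mutants and 138 in running mutants. Of 39 oxidative phosphorylation genes, 16 had a ratio and 22 lacked a value in at least 1 of the groups. Of the 16, 15 were lower, with a median of -0.33 that became -0.02 relative to genes of like length. Of 22 cholesterol synthesis genes, 17 had a ratio, and 15 of these were lower, with a median of -0.36. Endothelial and mural genes had a median of 0.15 with 11 higher, 7 lower and none past 2-fold; Slc2a1, the glucose transporter of the blood-brain barrier, was higher in both runner groups, at 53.7, 75.2, 58.3 and 94.3. The blood list had 4 loci with a ratio and a median of -0.12, whose sign turned under 3 other settings.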

How the data were processed

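The deposited tables are Cuffdiff gene tables with 1 combined value per group and no values per library, per the file headers. The authors gave each level in FPKM, and the deposited log2 fold change, test statistic (a score), p-value and q-value belong to 4 other pairs of groups, per the file headers. TopHat, TopHat2 2.0.8b, Cuffdiff, Cufflinks 2.1.1 and the build mm10 stand in the submitters' processing notes without a role. Library depth was unknown, and no interval for counting error is given.

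The tables were joined by locus, and all 13151 repeated group values were identical. The ratio was taken from FPKM without a pseudocount, and the deposited p-values and q-values were not used as a test of this pair. Alternatives were other pseudocounts, minimum levels, folds, centring, loci and references. The deposited log2 fold change differed from the FPKM ratio by more than 0.01 in 51 of 26512 cases, by at most 0.14. The fold computation was checked on simulated data. Members and the 24 gene lists (6 to 42 genes) were chosen with earlier results of these data known. Where a symbol had several loci, the most abundant was used. A locus that joins several symbols was counted in its list but not named. Named genes were Smarca5, Vgf and sex chromosome genes; the 12 largest increases and decreases; up to 4 members per list with the largest ratio; 8 genes near the control and 8 beyond the sedentary mutant (5 FPKM or more in a group); and the 10 largest FPKM differences each way. Other list members named were picked after their values were seen. Coordinates and transcript lengths are from GENCODE M21 (mm10); a length was had for 87.4% of loci. Python 3.11.15, pandas 2.3.3 and numpy 2.4.6 were used.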

Additional observations from a re-analysis of the deposited data

How the results depend on the processing

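The median absolute log2 ratio (0.44) ranged from 0.36 to 0.47 over the settings tried and stayed within 1.5-fold of its value. The count at least 2-fold higher was 709; it was 262 with 1 FPKM added, 258 with a minimum of 5 FPKM, 1607 at 1.5-fold, and 220 and 227 from deposited fold changes summed over control runner and over cKO sedentary, which cover 3166 and 3068 loci. The count at least 2-fold lower was 249; it was 131, 152, 1004, 87 and 104 under the same settings in that order, and 156 relative to genes of like length, over 6602 loci. The settings on length and on control runner as the reference were added after the data were seen. Of 263 list medians under other settings, 6 changed sign: inhibitory interneuron (-0.12), activity-regulated (-0.34) and sex chromosome genes (3.11) with control runner as the reference, and blood with a minimum of 5 FPKM (0.0112), over cKO sedentary (0.17) and with control runner (0.0119). Another 8 moved by more than 1.5-fold. The cause was not tested. No paired analysis was possible because the tables hold 1 combined value per group, and for the same reason no library could be left out. Ratios of genes under 1 FPKM rest on low levels.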

Other observations

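Beyond the lists, several genes of restricted expression were near silent in both control groups and present in both mutant groups. Each was among the 12 largest increases and under 1 FPKM in control sedentary. Their low level there and higher level in running mutants therefore follow from the choice. Glra4, a glycine receptor subunit gene on chromosome X, had 0.691 FPKM in sedentary controls, 0.646 in running controls, 29.2 in sedentary mutants and 24.8 in running mutants. Iyd, the iodotyrosine deiodinase gene, had 0.198, 0.244, 5.89 and 4.98. Prokr2, a prokineticin receptor gene, had 0.239, 0.252, 5.26 and 3.10, and Nphs1, the nephrin gene of the kidney filter, had 0.0819, 0.0974, 1.84 and 1.14. C3, the central complement component, had 0.252, 0.387, 2.53 and 3.07, so it was highest in the running mutant, unlike the other 4. On the low side, Ldoc1, a retrotransposon-derived gene on chromosome X, had 9.78, 6.36, 2.01 and 1.69, and Emilin3, an extracellular glycoprotein gene, had 3.04, 2.87, 0.434 and 0.555.

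Cpe, a prohormone-processing carboxypeptidase gene, was among the 10 largest FPKM gains, with 638 FPKM in control sedentary and 942 in cKO runner.

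Among loci with no ratio, Rln3, the precursor of the brainstem peptide relaxin-3, was listed at 0 in both control groups, at 4.38 FPKM in cKO sedentary and at 11.2 in cKO runner. An unnamed locus, XLOC_005329, was listed at 0 in both sedentary groups and at 1965 FPKM in control runner and 2873 in cKO runner. No gene name was found for it in the tables.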
